A study of Mus musculus with 5 samples.

Results

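The Wnt ligands, their Frizzled receptors and the secreted Frizzled-related antagonists were followed in differentiating mouse embryonic stem cells given MPA. The 33 genes were taken by symbol from the 18193 genes that the array names, and comprise 19 Wnt genes, 10 Frizzled (Fzd) genes and 4 Sfrp genes. They are covered by 67 probe sets, and each gene is given by the probe set that was brightest on average. The groups were MPA at 2 µM until day 6, MPA at 2 µM until day 8, and controls without MPA at day 5, day 6 and day 8. All 5 were mouse ES cells cultured on gelatin and directed to a pancreatic fate, and MPA was added at day 5, which gives an exposure of 1 day at day 6 and of 3 days at day 8. The labels do not spell MPA out and name neither the ES cell line nor a solvent control.

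Each group had 1 array, so no value carries a spread between cultures, and a difference is given as a size, with no test. Signals are linear intensities that the authors scaled to a 2% trimmed mean of 500 on each array. A floor was set at 86.8, the median of all probe sets, and a gene was taken as measured if 1 or both arrays compared exceeded it. A fold with the other array under the floor was computed against the floor and is written "at least". Of the 9 pancreatic progenitor markers on the array, 8 were above the floor with MPA at day 8 and 7 in the day 8 control, among them Neurog3, the endocrine progenitor factor, at 1295 with MPA and 193 in the control. Pdx1, which defines the pancreatic bud, reached 90.4 with MPA at day 8, just over the floor, and 78.6 in the day 8 control. For Gapdh, whose 3'/5' ratio of signals tracks RNA integrity, that ratio was 1.08 at day 5, 1.31 with MPA and 1.19 in the control at day 6, and 1.57 with MPA and 1.55 in the control at day 8. For beta-actin the ratio was 2.08 at day 5, and 3.06 with MPA and 3.04 in the control at day 6. At day 8 it was 2.71 with MPA and 2.81 in the control. These are mixed cultures, and fewer cells of a type cannot be told apart from less RNA per cell.

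Wnt proteins are secreted lipid-modified ligands. They bind the cysteine-rich domain of Frizzled receptors, and with an Lrp coreceptor they stabilise beta-catenin, which acts with TCF and LEF factors on target genes, while other ligands act through planar polarity signalling. Sfrp proteins carry a similar cysteine-rich domain and can hold Wnt ligands away from the receptors. In the embryo these genes pattern the primitive streak, the neural tube and the gut.

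Of the 33 genes, 16 were above the floor on all 5 arrays, 13 on 1 to 4 arrays, and 4 on none. Over all genes, 9091 of 18193 were above the floor on all 5 arrays. Receptors and antagonists were mostly the ones seen throughout, with 8 of 10 Frizzled genes and 3 of 4 Sfrp genes above the floor on all arrays. Of the 19 ligand genes only 5 were, namely Wnt4, Wnt5a, Wnt5b, Wnt9a and Wnt11. The ligand genes Wnt2b, Wnt9b, Wnt10b and Wnt16 stayed under the floor throughout, with signals of 3.06 to 74.2. Between 9 (MPA, at each day) and 12 (day 8 control) ligand genes lay above the floor on an array.

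**Figure D1:**
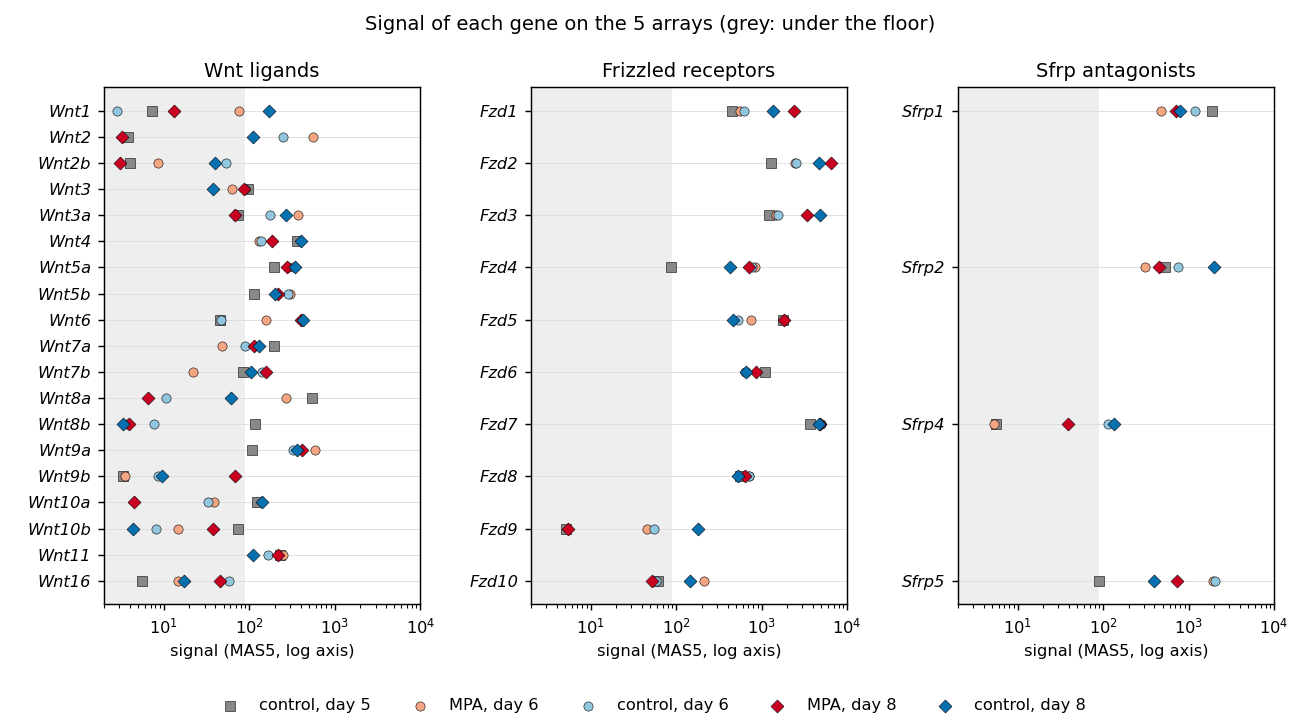
Signal of the 33 genes on the 5 arrays, on a log axis, with 1 point per array and the range under the floor of 86.8 in grey. Fzd1 to Fzd8, Sfrp1, Sfrp2 and Sfrp5 lie right of the grey area on every array, while most Wnt ligand genes have points on both sides of its edge.

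Between MPA and control at day 6, 6 of 25 measured genes were 2-fold or more apart, 4 higher and 2 lower with MPA, against 7.17% of all genes measured (4.02% higher and 3.15% lower). With log2(signal + floor) the count was 6 too, but with 2 higher and 4 lower. At day 8 it was 5 of 27, 1 higher and 4 lower, against 6.91% of all genes (3.72% higher and 3.18% lower). The members' median log2 difference was -0.02 at day 6 and -0.06 at day 8, against 0.02 and -0.02 over all genes.

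The antagonist Sfrp2 had the largest MPA difference among the genes above the floor on both arrays. Sfrp2, which is expressed in the developing neural tube, had signals of 306 with MPA against 746 in the control at day 6, and 458 with MPA against 1997 in the control at day 8, while the day 5 control stood at 530.4. Both MPA arrays were lower than their controls and lower than day 5, and in the controls the signal was higher on each later day. With MPA, Sfrp2 was 2.44-fold lower at day 6 and lower by 4.36-fold at day 8, on its 1 probe set. Between MPA and control, markers of the dorsal neural tube and of neural progenitors went the same way. Of 10 measured at day 6, 8 were lower with MPA, and the summed signal of the 12 listed genes was 2785 with MPA against 5503 in the control. At day 8 all 10 measured were lower, with sums of 3836 with MPA and 16914 in the control, and Neurog2 and Olig3 of the same list stayed under the floor on all arrays. Over all genes measured, 5936 of 12240 were lower with MPA at day 6 and 6541 of 12599 at day 8. Neuron markers were lower too, in 6 of 7 measured at day 6 and 7 of 10 at day 8. The part of these cells in the Sfrp2 difference was not tested.

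Sfrp1, a close relative of Sfrp2, differed at day 6. Its signal was 471 with MPA against 1194 in the control at day 6, and 721 with MPA against 803 in the control at day 8, with 1865 at day 5. The MPA array of day 6 was the lowest of the 5, 2.54-fold below its control, and at day 8 the arrays were 1.11-fold apart. Sfrp1 has 4 other measured probe sets, of which 3 were also lower at day 6 (log2 differences down to -1.97) and 1 was higher by 0.20. In the controls Sfrp1 was 2.32-fold lower at day 8 than at day 5, and all 4 further probe sets were lower too.

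Sfrp5, an antagonist of the foregut endoderm in mouse embryos, appeared and receded within the series. It had a signal of 90.5 at day 5, of 1926 with MPA and 2052 in the control at day 6, and of 733 with MPA and 393 in the control at day 8. The day 6 control was 22.7-fold above the day 5 control, and the day 8 control 5.22-fold below that of day 6. The day 5 signal was just over the floor, and the log2 difference to day 6 ranged from 2.48 to 4.50 over the settings run. The other Sfrp5 probe set was above the floor in the day 6 control alone, at 119. The MPA array was 1.07-fold lower than its control at day 6 and 1.86-fold higher at day 8. Sfrp4 was near or under the floor, at 5.26 with MPA and 115 in the control at day 6, and at 38.6 with MPA and 133 in the control at day 8.

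Among the receptors above the floor on both arrays, Fzd5 had the largest MPA difference, opposite in direction to that of Sfrp2. Fzd5, a receptor of the eye field and gut epithelium, had signals of 753 with MPA against 535 in the control at day 6, and 1821 with MPA against 459.8 in the control at day 8. The day 5 control stood at 1756, so the day 8 array with MPA was near the day 5 level while both later controls were low. With MPA, Fzd5 was 1.41-fold higher at day 6 and higher by 3.96-fold at day 8, on 1 probe set. Averaging its probe sets gave a log2 difference of 0.99 at day 8, which is under 2-fold. The other Fzd5 probe set reached at most 98.2 and lay under the floor on both day 8 arrays, so it gives no check. Between MPA and control, epithelial markers moved the same way. All 10 measured were higher with MPA at day 8, with summed signals of 130695 with MPA and 73347 in the control, against 8 of 10 at day 6 with sums of 90842 with MPA and 70515 in the control. Between the control days they did not. From day 5 to day 6 Fzd5 was 3.29-fold lower, while 8 of 10 epithelial markers were higher. For day 8 against day 5 in the controls, Fzd5 was 3.82-fold lower and 7 of 10 were higher. Other lists were higher with MPA at day 8 too, cardiac and smooth muscle markers in 7 of 7 and pancreatic progenitor markers in 8 of 9. The part of epithelial cells in the Fzd5 difference was not tested.

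The promoter windows of Sfrp2 and Fzd5 are shown because these genes had the largest MPA differences among those above the floor on both arrays, and those of Wnt3a and Fzd1 for the ligand and the receptor described next. They are RefSeq windows of 300 bases, 250 before to 50 after the transcription start, on build GRCm38.p6, written 5′ to 3′ on the gene's strand. They lie at chr3:83766071-83766370 (plus strand, Sfrp2), chr1:64737701-64738000 (minus strand, Fzd5), chr11:59290702-59291001 (minus strand, Wnt3a) and chr5:4758167-4758466 (minus strand, Fzd1). Capitals mark the letters CTTTGA or CTTTGT, on either strand, which hold the core of the TCF and LEF binding motif.
Sfrp2: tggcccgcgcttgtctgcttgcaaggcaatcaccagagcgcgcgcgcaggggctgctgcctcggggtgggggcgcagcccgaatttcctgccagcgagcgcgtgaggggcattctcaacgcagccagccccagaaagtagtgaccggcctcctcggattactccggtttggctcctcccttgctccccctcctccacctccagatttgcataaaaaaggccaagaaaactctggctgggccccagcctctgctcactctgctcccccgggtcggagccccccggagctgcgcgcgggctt
Fzd5: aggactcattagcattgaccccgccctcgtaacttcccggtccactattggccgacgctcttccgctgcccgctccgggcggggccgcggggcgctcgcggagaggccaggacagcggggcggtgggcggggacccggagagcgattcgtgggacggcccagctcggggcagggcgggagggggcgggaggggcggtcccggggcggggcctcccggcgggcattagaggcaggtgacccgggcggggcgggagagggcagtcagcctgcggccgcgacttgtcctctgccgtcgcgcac
Wnt3a: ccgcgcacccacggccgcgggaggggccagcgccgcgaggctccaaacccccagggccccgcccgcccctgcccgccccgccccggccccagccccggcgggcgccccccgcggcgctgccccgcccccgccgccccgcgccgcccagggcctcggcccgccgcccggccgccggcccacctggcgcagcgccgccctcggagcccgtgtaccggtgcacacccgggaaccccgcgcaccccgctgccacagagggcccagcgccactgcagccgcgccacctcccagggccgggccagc
Fzd1: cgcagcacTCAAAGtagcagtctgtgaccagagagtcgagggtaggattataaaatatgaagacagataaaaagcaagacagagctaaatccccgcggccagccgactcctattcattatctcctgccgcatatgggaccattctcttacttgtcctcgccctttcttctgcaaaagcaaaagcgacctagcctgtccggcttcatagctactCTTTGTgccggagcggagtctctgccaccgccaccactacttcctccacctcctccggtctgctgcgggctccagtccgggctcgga

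Of these 4 windows, that of Fzd1 held the TCF/LEF letters, at 242 and 37 bases before the start, and the other 3 held none. Windows were found for 23 of the 33 genes, and 6 of their 26 windows held the letters (Fzd1, Fzd7, Wnt3, Wnt5b, Wnt8b and Wnt11). This compares with 31.2% of the 32851 windows in the table and 28.3% of the windows of protein-coding genes. The half-site of retinoic acid receptors, AGGTCA on either strand, able to share the letters TGA with the first motif, was in 1 window, that of Wnt16. This compares with 16.3% of all windows and 14.7% of those of protein-coding genes. A match describes letters and is not a binding site. The members' windows were rich in CpG, with a median of 28 CpG per window against 13 in the 21262 windows of protein-coding genes. Their median GC content was 71% against 56.3% in those windows.

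Fzd4, a receptor of blood vessels and retina, had signals of 87.6 at day 5, of 847 with MPA and 769 in the control at day 6, and of 706 with MPA and 428 in the control at day 8. All later arrays were far above day 5, and the control of day 6 was 8.78-fold above it. The day 5 signal was just over the floor, and this log2 difference ranged from 1.97 to 3.19 over the settings run. The second Fzd4 probe set above the floor went the same way, by a log2 difference of 2.78.

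On their brightest probe sets, Fzd1, Fzd2 and Fzd3 were higher on each later day in the controls. Fzd1 had signals of 455 at day 5, of 554 with MPA and 628 in the control at day 6, and of 2410.1 with MPA and 1346 in the control at day 8. The day 8 array with MPA was the highest of the 5, 1.79-fold above its control. Its other probe set, near or under the floor, was lower in the day 8 control than in the day 6 control, by a log2 difference of -0.18. Fzd2, of the same receptor subfamily as Fzd1 and Fzd7, had signals of 1284 at day 5, of 2427 with MPA and 2499 in the control at day 6, and of 6568 with MPA and 4713 in the control at day 8. Its day 8 control was 3.67-fold above day 5 on this probe set, while the other 2 probe sets gave log2 differences of 0.10 and 0.50. For day 8 against day 6 in the controls those 2 were lower, by -0.39 and -0.30, so the higher day 8 value rests on 1 probe set.

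Fzd3, a receptor of planar polarity signalling needed for axon guidance, had signals of 1216 at day 5, of 1475 with MPA and 1548 in the control at day 6, and of 3380 with MPA and 4838 in the control at day 8. Its day 8 control was 3.98-fold above day 5, all 4 further measured probe sets agreed in direction, and MPA was 1.43-fold lower at day 8. Fzd6, Fzd7 and Fzd8 stayed within 1.74-fold of their lowest array, and none of them was 2-fold apart in any comparison. Fzd9 crossed the floor in 1 array, the day 8 control at 179.7, against 5.48 with MPA at that day, at least 2.07-fold lower. Fzd10 crossed the floor at 211 with MPA at day 6, against 58.6 in that control, at least 2.44-fold higher. It also crossed the floor at 144 in the day 8 control, against 52.5 with MPA.

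**Figure D2:**
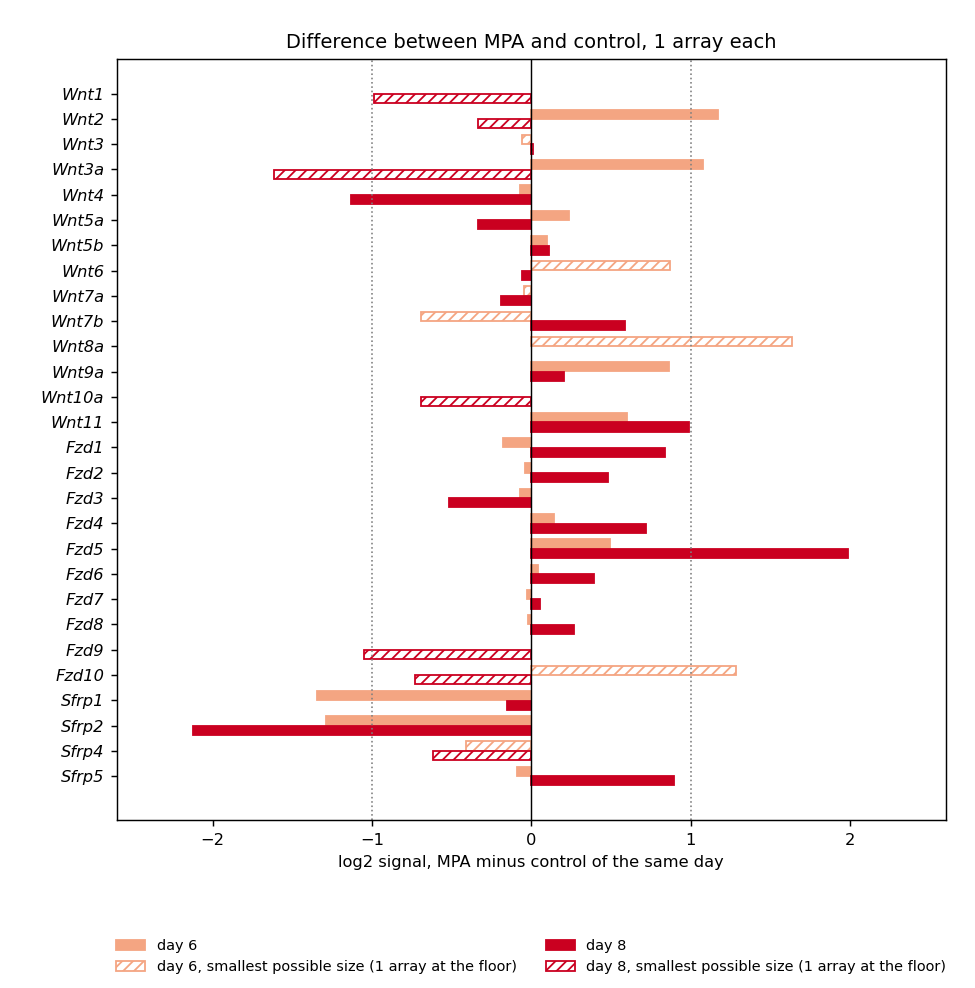
Log2 difference in signal between MPA and control of the same day for the genes measured at day 6 or day 8, with 1 array on each side. Hatched bars are lower bounds on the size because 1 of the 2 arrays was under the floor, and dotted lines mark 2-fold. Fzd5 reaches 1.99 and Sfrp2 -2.13 at day 8, and Wnt3a lies on opposite sides of 0 at the 2 days.

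Of 12 ligand genes measured at day 6, 3 were 2-fold higher with MPA, against 4.02% of all genes, and of 13 at day 8 it was 0, against 3.72%. With log2(signal + floor) Wnt3a (0.80) and Wnt2 (0.94) were under 2-fold at day 6. Wnt8a, a ligand of the primitive streak, had a signal of 270 with MPA against 10.6 in the control at day 6, and of 6.62 with MPA against 60.9 in the control at day 8, with 544 at day 5. The day 6 control was under the floor, at least 6.27-fold below day 5, and the day 6 array with MPA was at least 3.11-fold above that control. Wnt3a, a ligand of the streak, tail bud and dorsal neural tube, had a signal of 373 with MPA against 177 in the control at day 6, and of 69.0 with MPA against 266 in the control at day 8, with 74.7 at day 5. With MPA, Wnt3a was 2.11-fold higher at day 6 and lower by at least 3.06-fold at day 8, on 1 probe set. Wnt2, a mesodermal ligand, had a signal of 550.5 with MPA against 245 in the control at day 6, and of 3.23 with MPA against 109 in the control at day 8, with 3.81 at day 5. It was 2.25-fold higher with MPA at day 6, and at day 8 the control was only just above the floor.

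Wnt4, a ligand of kidney and gonad development, had a signal of 130.5 with MPA against 137 in the control at day 6, and of 186 with MPA against 407 in the control at day 8, with 366 at day 5. MPA was 2.19-fold lower at day 8, and the second probe set gave a log2 difference of -1.04. Wnt6 appeared late, with 158 with MPA against 47.0 in the control at day 6, and 404 with MPA against 421 in the control at day 8, after 45.9 at day 5. Its day 8 control was at least 4.85-fold above day 5, and its second probe set was higher by 1.48. At day 6 that second probe set had 101 with MPA against 91.5 in the control, a log2 difference of 0.14. Wnt9a had signals of 587 with MPA against 323 in the control at day 6, and 416 with MPA against 360.0 in the control at day 8, with 107 at day 5. The control was 3.03-fold higher at day 6 than at day 5 on this probe set, and the other one went the opposite way (-0.67).

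Wnt11, which acts in gastrulation movements and heart development, was 251 with MPA against 166 in the control at day 6, and 219 with MPA against 110.2 in the control at day 8, with 228 at day 5. It was the 1 ligand gene above the floor on every array that was over 1.5-fold higher with MPA at both days, 1.52-fold and 1.98-fold. Wnt5a, the main planar polarity ligand, stayed between 195 and 346 on all 5 arrays on its brightest probe set. A second probe set above the floor on all arrays had 113 in the day 6 control and 345 in the day 8 control, and was higher with MPA at day 6 by a log2 difference of 0.88. Wnt5b ranged from 114 at day 5 to 302 with MPA at day 6, and was 2.49-fold higher in the day 6 control than at day 5, with its second probe set going the other way (-0.62). Wnt5b and Wnt3 are given by probe sets whose names end in _x_at, which can pick up related transcripts. Wnt7a was 2.18-fold lower in the day 6 control (89.5) than at day 5 (195), with its further measured probe set higher by 0.19. Wnt1, Wnt3, Wnt7b, Wnt8b and Wnt10a stayed at 172 or below on every array and had no difference called 2-fold, but most of their folds are lower bounds against the floor, as for Wnt1 at day 8 (13.1 with MPA, 172 in the control).

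**Figure D3:**
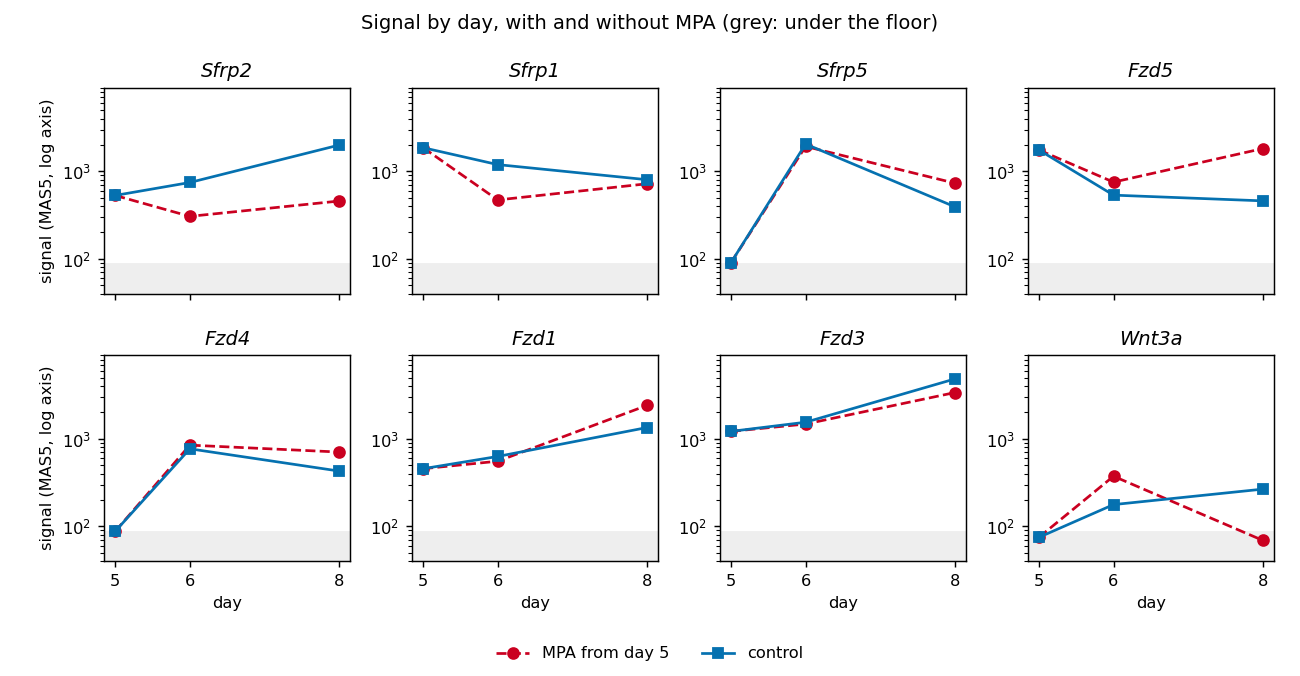
Signal by day for 8 of the genes, with MPA from day 5 (red, dashed) and without it (blue), on a log axis with 1 array per point and the same day 5 control opening both lines. The lines part most for Sfrp2 and Fzd5 at day 8, cross for Wnt3a, and run close together for Sfrp5 and Fzd4 up to day 6.

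The controls show how the family differed between days. From day 5 to day 6, 10 of 25 measured genes were 2-fold apart, 6 higher and 4 lower, against 9.86% of all genes (5.46% higher and 4.4% lower). From day 6 to day 8 it was 8 of 27, 6 higher and 2 lower, against 13.5% (7.07% higher and 6.43% lower). For day 8 against day 5 it was 14 of 29, 10 higher and 4 lower, against 16.9% (9.61% higher and 7.27% lower), and 5 of the 10 Frizzled genes were among the higher ones. The 4 lower ones were Fzd5, Sfrp1, Wnt8a and Wnt11. With MPA, day 8 against day 6 gave 10 of 24, 5 higher and 5 lower, against 15.3% (7.64% higher and 7.64% lower). Fzd5 was 2.42-fold higher in that step, where the control was 1.16-fold lower, and Sfrp2 had 458 with MPA at day 8 against 306 with MPA at day 6, where the control was 2.68-fold higher. These comparisons share arrays with each other, the controls of days 6 and 8 included. Over the same days many markers of later cell types had higher signals, among them 9 of 9 measured mesenchymal and 7 of 8 cardiac markers for day 8 against day 5, and 9 of 10 epiblast markers were lower. Over all genes measured in that comparison, 6722 of 12784 were higher and 6062 lower. The part of these marker shifts in the family's differences was not tested.

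A linear model of the 4 arrays from days 6 and 8, with terms for MPA and for day, asked which genes differed alike at both days. Its error is the disagreement between the days, with 1 residual degree of freedom. The fit took 24 members, those with 2 or more of these arrays over the floor, and 0 passed in limma with Benjamini-Hochberg adjustment over 11599 genes, of which 0.00862% passed. Sfrp2 came nearest, with a mean log2 difference of -1.71 (SE 0.33, limma adjusted p = 0.492, lower with MPA on both days). At an unadjusted p under 0.05 there were 2 members, Sfrp2 and Fzd5 (1.24, SE 0.38), against 6.37% of all genes fitted.

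Other genes of the pathway show how its readout differed beside the ligands and receptors. Of 19 listed target genes of beta-catenin, 17 were found on the array by symbol, and T and Tcf7 were not. At day 6, 14 were measured, and 13 of these were higher with MPA and 1 lower. Of the higher ones 8 were at least 2-fold higher, against 4.02% of all genes. At day 8, 11 of 13 measured were lower with MPA and 2 higher, 7 of them at least 2-fold lower, against 3.18% of all genes. The list's median log2 difference was 1.10 at day 6 and -1.38 at day 8, against 0.02 and -0.02 over all genes. Under 7 other settings its lowest and highest values were 0.61 and 1.12 at day 6, and -1.47 and -0.71 at day 8. In the controls the list's median was -1.02 from day 5 to day 6 and 1.19 from day 6 to day 8. The summed signal of the 17 genes was 8894 at day 5, and 8765 with MPA and 3913 in the control at day 6. At day 8 it was 4538 with MPA and 11194 in the control. Thus the day 6 sum with MPA was near that of day 5, while the day 6 control was low.

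Sp5, a transcription factor that beta-catenin induces directly, had a signal of 1022 with MPA against 153 in the control at day 6, and of 207 with MPA against 691 in the control at day 8, with 659 at day 5. It was 6.70-fold higher with MPA at day 6 and 3.33-fold lower at day 8. Lef1, a DNA-binding partner of beta-catenin, had 663 with MPA against 253 in the control at day 6, and 121 with MPA against 327 in the control at day 8. Tnfrsf19 had 1948 with MPA against 730.3 in the control at day 6, and 512 with MPA against 1661 in the control at day 8. Axin2, the feedback inhibitor used as a standard readout of the pathway, was 1.42-fold higher at day 6 and 2.86-fold lower at day 8. Dkk1, an antagonist that is itself a target, was 4.82-fold higher at day 6 (726 with MPA, 150.5 in the control), and at day 8 the difference was 1.32-fold in the same direction. At day 5 the signals were 848 for Lef1, 1162 for Tnfrsf19, 272 for Axin2 and 642 for Dkk1. Several of these genes are also expressed in the dorsal neural tube or the streak, and the part of cell composition was not tested. Of the streak and early mesoderm markers, 3 of 4 measured were higher with MPA at day 6. Eomes was 1.04-fold higher, Mixl1 at least 1.01-fold and Evx1 at least 1.35-fold, while Gsc was at least 2.39-fold lower. At day 8, 3 of 3 were lower, by at least 1.13-fold (Eomes), 1.43-fold (Mesp1) and 1.22-fold (Tbx6), with 0 above the floor with MPA. Mesp2 and Msgn1 were under the floor on all arrays, and T of the same list was not found by symbol. Summed signals over the 9 listed genes on the array were 564 with MPA against 591 in the control at day 6. At day 8 they were 355 with MPA against 468 in the control.

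**Figure D4:**
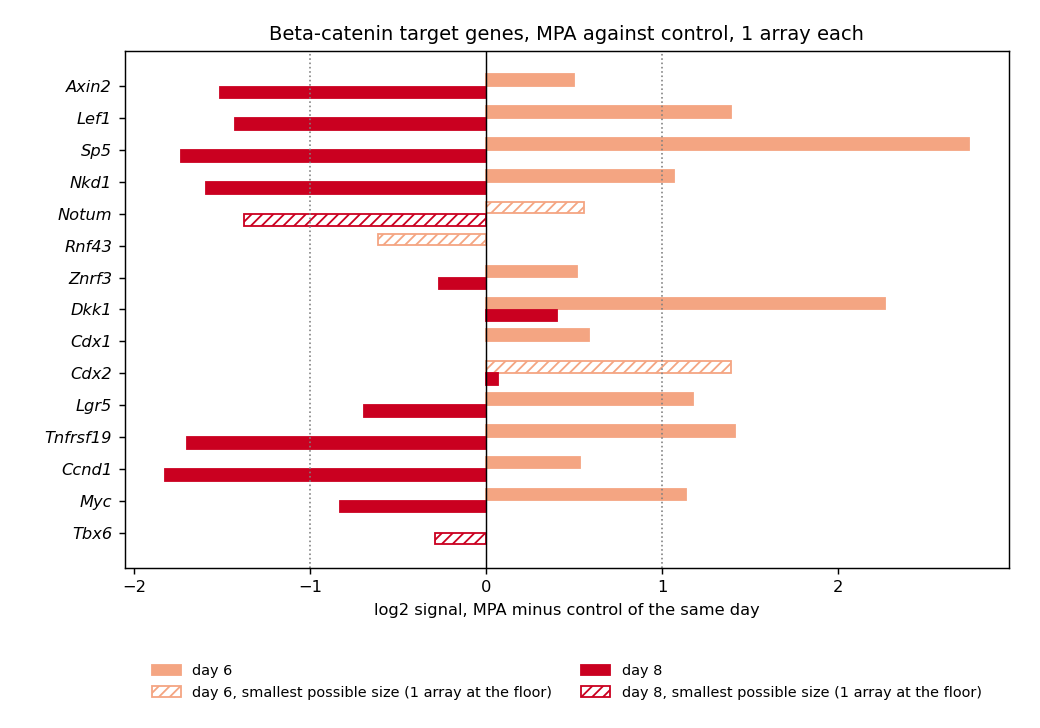
Log2 difference in signal between MPA and control of the same day for 15 listed target genes of beta-catenin measured at day 6 or day 8, with 1 array on each side. Hatched bars are lower bounds on the size, and dotted lines mark 2-fold. Sp5, Lef1, Nkd1 and Tnfrsf19 pass 2-fold in opposite directions at the 2 days.

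The other lists of the pathway held genes in both directions. Some genes are also on the target list, such as Axin2, Lef1 and Nkd1 of the beta-catenin branch and Dkk1 of the antagonists. Over all genes measured, 6303 of 12240 were higher with MPA at day 6 and 6058 of 12599 at day 8. Of the 12 coreceptor genes, 6 were higher and 6 lower with MPA at day 6, and 8 higher and 4 lower at day 8, with Ror2, a receptor of Wnt5a, at 450 with MPA against 963 in the control at day 8. Of the R-spondins, their receptors and the ligases they act on, 6 of 8 measured were higher at day 6 and 3 of 8 at day 8. Rspo3, an amplifier of Wnt signalling, stood at 2772 at day 5 and was 13.4-fold lower in the day 8 control (207). Genes of ligand making and secretion were higher in 2 of 5 at day 6 and 1 of 5 at day 8. Porcn, which attaches the lipid to Wnt ligands, had 221 at day 5, 1367 with MPA and 1192 in the control at day 6, and 150.3 with MPA and 192 in the control at day 8. The other secreted antagonists were higher in 7 of 9 measured at day 6 and 5 of 11 at day 8, with Shisa3 at 805 with MPA against 113 in the control at day 8. Of the beta-catenin branch, 12 of 23 measured were higher at day 6 and 14 of 25 at day 8. Of the planar polarity branch, 4 of 10 and 4 of 12 were higher, with Celsr2 at 113 with MPA against 487 in the control at day 8.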

How the data were processed

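Per the labels' protocols, biotin-labelled cRNA from each of 5 samples was hybridised to 1 Affymetrix array. The deposited value is a linear intensity for each probe set, made by the authors with MAS5 per the submitters' processing notes, which state no version or background setting. Of 45101 probe sets, 64 controls were left out, 34945 had 1 gene symbol in the platform annotation given, 932 had several and 9160 were unnamed here. All 33 members matched RefSeq by gene identifier. Low MAS5 signals scatter widely once logged, and probe sets for the bacterial trpnX gene, absent from mouse cells, reached 46.6 and 59.4 on the MPA arrays of days 6 and 8, against 10.1 and 13.3 on the controls of those days.

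Signals under the floor of 86.8 were raised to it before log2 values were taken. Genes 2-fold or more apart were counted, with no test for 1 array against 1. The fit used limma 3.58.1 in R 4.3.3 (lmFit, eBayes with trend and robust, adjusted p under 0.05) and was tested on simulated data. Other steps used Python 3.11.15, numpy 2.4.6, pandas 2.3.3 and scipy 1.17.1. The members and the 19 gene lists (207 genes, 199 on the array) were chosen with earlier results of these data known. Full signals are given for members 2-fold apart in any of 6 comparisons, except Fzd9, Fzd10, Wnt5b and Wnt7a, and for some others. Of the pathway lists, named genes were among the 4 with the largest MPA difference or the 4 with the largest control difference of day 8 against day 5. Of the marker lists, Neurog3, the measured streak markers and some markers near or under the floor were named. Alternatives were quantile normalization, median centring, a floor at the 25th percentile, one at the 65th, averaging a gene's probe sets, log2(signal + floor), and leaving out probe sets ending in _s_at, _x_at or _a_at. For the fit they were also no day term, a linear trend in day with the day 5 array added, plain eBayes and no filter. Lists are described by counts, without a test.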

Additional observations from a re-analysis of the deposited data

Results flagged for a closer look

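Wnt3a had MPA differences of 2-fold or more in opposite directions at the 2 days, with a log2 difference of 1.08 at day 6 and of -1.62 or beyond at day 8. The difference between the days was not tested, and each value rests on 1 array per group and 1 probe set. At day 6 the value was 0.99 with quantile normalization and 0.80 with log2(signal + floor). At day 8 the array with MPA was under the floor, and the value ranged from -1.95 to -0.59 over the settings run. It was thus not 2-fold under all of them at either day.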

How the results depend on the processing

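The number of members 2-fold apart depended most on the floor. With a floor at the 25th percentile (14.7) it was 12 for MPA against control at day 6 and 16 at day 8, 17 for day 6 against day 5 in the controls, 14 for day 8 against day 6, 22 for day 8 against day 5, and 19 for day 8 against day 6 with MPA. With a floor at the 65th percentile (176) it was 3 for MPA against control at day 8 and 5 for day 6 against day 5 in the controls. With the mean over probe sets it was 6 for day 6 against day 5 in the controls and 5 for day 8 against day 6 with MPA. The other counts stayed within 1.5 times of those reported under the alternatives run. Of 370 values of the 53 member differences of 2-fold or more under these alternatives, 322 were still 2-fold, 48 had the same direction at under 2-fold, and 0 turned. Averaging probe sets gave a log2 MPA difference of -0.87 for Sfrp1 at day 6. Over all genes, median centring turned the split at day 6 to 390 higher and 472 lower with MPA, against 492 and 385 without it. In limma 0 members passed under any of 11 alternatives, with 0 to 3 at an unadjusted p under 0.05 and a lowest adjusted p from 0.419 to 1. The limma model sets MPA against control within each day. No paired analysis was possible because there are no replicates in any group to pair by number, and none could be left out.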

Other observations

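In 4 pairs, Wnt genes are direct neighbours among the protein-coding genes of GRCm38.p6, with 0 such genes between them. Wnt3a and Wnt9a form one of them and were both higher with MPA than in the control at day 6, 2.11-fold and 1.82-fold. At day 8 Wnt3a was at least 3.06-fold lower and Wnt9a 1.15-fold higher. Wnt6 and Wnt10a differed at day 8, where Wnt6 had 404 with MPA and 421 in the control and Wnt10a 4.51 with MPA and 140.0 in the control. Wnt1 reached 172 in the day 8 control, against 13.1 with MPA, while its neighbour Wnt10b stayed under the floor. Wnt9b and Wnt3 were at or under 96.4 on all 5 arrays.

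Of the remaining lists, hepatic and yolk sac endoderm markers were higher with MPA in 5 of 7 measured at day 6 and 2 of 5 at day 8, and definitive endoderm markers in 6 of 9 and 5 of 7. Pancreatic progenitor markers were higher in 4 of 6 and 8 of 9, and endocrine and gut hormone markers in 2 of 3 and 7 of 8. Cardiac and smooth muscle markers were higher in 5 of 8 and 7 of 7, and mesenchymal markers in 4 of 10 and 4 of 9. Neuron markers were higher in 1 of 7 and 3 of 10, neural crest markers in 4 of 7 and 4 of 8, and epiblast markers in 5 of 8 and 3 of 6. Of all genes measured, 6303 of 12240 were higher with MPA at day 6 and 6058 of 12599 at day 8.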
